A study of Mus musculus with 12 samples.

Results

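The 9 genes described here encode the MYC and MAX network of transcription factors: Myc, Mycn, Max, Mxd1, Mxd3, Mxd4, Mxi1, Mnt and Mlx. They form a list of names and were found by symbol among the 49671 genes listed for each library. NIH 3T3 cells, immortalized fibroblasts from mouse embryos, were profiled by RNA-seq in 12 libraries, 3 for each of 4 groups. Cells received either the AllStars negative control siRNA or an siRNA of a single sequence against all isoforms of Lap2, a protein of the nuclear lamina encoded by Tmpo. Both kinds of cells were kept in 0.3% FBS (serum-starved) or were given 15% FBS for 45 min (serum-stimulated). The groups are called here control cells and Lap2-depleted cells, and they differ in nothing else that the labels name.

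Proteins of this network bind DNA in pairs, and in most pairs one partner is MAX. MYC and MYCN with MAX bind the E-box, the word CACGTG, and activate genes of growth, ribosome assembly and metabolism. MXD1, MXD3, MXD4, MXI1 and MNT compete for the same MAX and the same word and repress through SIN3 and histone deacetylases, while MLX pairs with some MXD proteins, with MNT and with glucose-sensing partners. In fibroblasts Myc is a classic immediate early gene, barely transcribed in quiescent cells and induced within minutes of serum, whereas MXD genes are known from cells that leave the cycle and Mxd3 from cells in S phase.

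The E-box itself lies upstream of some of these genes, and the stretches that hold it are shown because they tie members of the network to the word that the network reads. The promoter windows of RefSeq (GRCm38.p6, the assembly of the files' coordinates) held 8 of the 9 genes, all but Myc. In the 250 bases before the start site, CACGTG, which reads the same on both strands, occurred once each in Mxd4, Mnt and Mlx and was not in the windows of Mycn, Max, Mxd1, Mxd3 or Mxi1 (0 matches, with 3 start sites for Mxi1). Of 32851 windows of that length in the table, 6.02% held it. The stretches follow 5′ to 3′ on the strand of the gene, with the E-box in capitals.
Mxd4, 219 bases before the start, chr5:34187912-34187941, minus strand: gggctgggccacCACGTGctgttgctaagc
Mnt, 123 bases before the start, chr11:74830789-74830818, plus strand: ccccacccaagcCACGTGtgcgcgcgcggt
Mlx, 40 bases before the start, chr11:101087238-101087267, plus strand: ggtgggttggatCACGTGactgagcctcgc
The 3 genes with this word did not share a direction in the data below: Mlx was higher and Mxd4 lower in Lap2-depleted cells, and Mnt did not pass the test there.

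Counts came to between 18026298 and 26265253 reads on genes per library. The siRNA target Tmpo had 2822 ± 57.0 normalized counts (SD, n = 3) in starved control cells, 1083 ± 97.3 in starved Lap2-depleted cells, 3175 ± 136 in stimulated control cells and 706 ± 87.0 in stimulated Lap2-depleted cells. Lap2 siRNA thus lowered Tmpo 2.61-fold in 0.3% FBS and 4.5-fold in 15% FBS, so the depth of depletion differed between the serum conditions. Replicate 1 of the starved Lap2-depleted cells stood apart from its replicates (a mean chi-square per gene of 19.0 and 20.2, against 2.57 to 7.62 for the other replicate pairs), so calls of members that change without it, and listed counts that move by over 1.5 times, are given both ways. Of 10 markers of fibroblasts, 7 were called lower and 2 higher in Lap2-depleted cells in 0.3% FBS (18.6% and 17.8% of all genes), with Col3a1 at a log2 fold change (log2FC) of -1.67. In 15% FBS 7 were called lower and 0 higher (12.1% and 11.4% of all genes). These were 8 and 2 without that library, and also in a fit of the 15% FBS groups alone. Their summed level lay between 4550 and 7100 RPKM (reads per kilobase of exon, scaled to library size). The summed level of 10 markers of epithelial, blood, endothelial and muscle cells was 1.15 to 2.35 RPKM, with Krt18 and Myod1 at 0 in every library. The part of the fibroblast markers' shift in any result below was not tested.

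All 9 genes passed the filter of more than 1 read in at least 3 libraries and were tested among 18668 genes. A gene was called where the quasi-likelihood test of edgeR, adjusted by Benjamini-Hochberg over all these genes, gave a p under 0.05. In control cells serum changed 8 of the 9 members, 3 higher and 5 lower, where 29.5% of all tested genes were called (15.6% higher and 13.9% lower). In Lap2-depleted cells serum changed 3 members, 2 higher and 1 lower, where 33.2% of all genes were called (18.3% higher and 14.9% lower). Scaling to total counts gave 6 members there (1 higher and 5 lower) and upper-quartile scaling 5 (2 higher and 3 lower). Of all 18668 genes the former called 1658 higher and 5951 lower, and the latter 2383 and 3942. These scalings moved the median log2FC of all genes by -0.23 and -0.11 for that comparison. Lap2 siRNA changed 5 members in 0.3% FBS (3 higher and 2 lower, where 36.5% of all genes were called, 17.8% higher and 18.6% lower). In 15% FBS it changed 5 as well (3 higher and 2 lower, where 23.4% were called, 11.4% higher and 12.1% lower). The serum responses of 2 members were called different between the 2 kinds of cells, Mxi1 (more positive in Lap2-depleted cells, as for 7.09% of all genes) and Myc (more negative, as for 6.51%). Without starved Lap2-depleted replicate 1 Mxd4 and Mnt joined them to make 4. Calls over all genes rose there too, from 1324 more positive and 1216 more negative of 18668 to 1556 and 1973 of 18434. Scaling to total counts moved the split of all genes under serum from 2915 higher and 2597 lower to 1632 and 5847 in control cells, and from 3420 and 2777 to 1658 and 5951 in Lap2-depleted cells. The 3 libraries of each group did not overlap for 6 members under serum in control cells (42% of all genes), for 4 under serum in Lap2-depleted cells (41.7%), for 6 under Lap2 siRNA in 0.3% FBS (43.4%) and for 6 in 15% FBS (38.8%). Myc, Mxd3 and Mlx were called under serum in both kinds of cells, and Mxd3, Mxd4 and Mlx under Lap2 siRNA in both serum conditions. The shares of all genes depend on the filter. A stricter count filter (filterByExpr) kept 13987 genes and all 9 members, and the numbers of members called stayed the same. It called 2905 genes higher and 2739 lower under serum in control cells, and 3352 and 2934 in Lap2-depleted cells. Under Lap2 siRNA these were 3286 and 3491 in 0.3% FBS and 2136 and 2401 in 15% FBS.

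**Figure D1:**
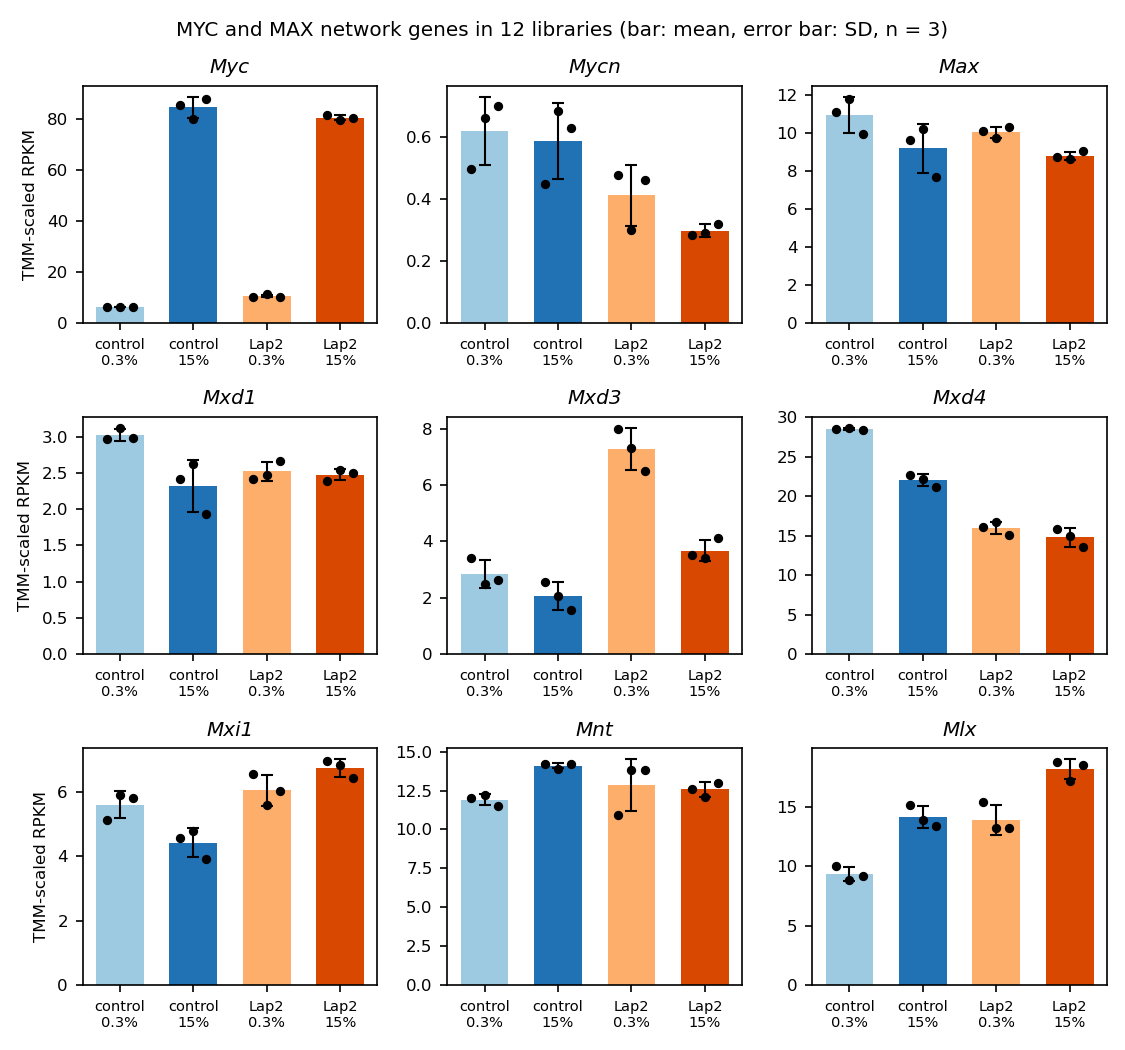
Levels of the 9 genes in each library (TMM-scaled RPKM, linear axes that differ between panels); bars are means, error bars SD, points the 3 libraries of each group. Myc reached 79.8 to 88.0 RPKM in the 6 stimulated libraries and at most 11.2 in the 6 starved ones, Mxd4 was highest in starved control cells and Mxd3 in starved Lap2-depleted cells.

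Myc (ENSMUSG00000022346, chr15:61985391-61990374, plus strand) had by far the largest response to serum in the network. Starved control cells held 371, 359 and 355 normalized counts of Myc in replicates 1 to 3, and stimulated control cells 4897, 4598 and 5045. Starved Lap2-depleted cells held 590, 640 and 585, and stimulated Lap2-depleted cells 4674, 4574 and 4609. Each starved Lap2-depleted library was thus above each starved control library, while the stimulated libraries of both siRNAs overlapped. In control cells serum raised Myc 13.4-fold (log2FC 3.74, SE 0.07, edgeR adjusted p = 2.7e-29), the 189th highest log2FC of the 18668 tested genes. In Lap2-depleted cells the rise was 7.63-fold (log2FC 2.93, SE 0.07, edgeR adjusted p = 8.9e-27).

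These rises started from different levels and ended at levels that were not told apart. Lap2 siRNA raised Myc 1.67-fold in 0.3% FBS (log2FC 0.74, SE 0.07, edgeR adjusted p = 7.5e-10). In 15% FBS the log2FC was -0.07 (95% interval -0.19 to 0.05, edgeR adjusted p = 0.48). The log2 response to serum was smaller in Lap2-depleted cells by 0.81 (SE 0.10, edgeR adjusted p = 1.9e-07 for the interaction). RNA of a whole culture was measured here, so more Myc per cell and more cells with Myc cannot be told apart.

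The 5 genes whose log2 levels followed Myc most closely over the 12 libraries, among 10448 genes with at least 100 normalized counts on average, were Trib1, Ier3, Taf5l, Ccn1 and Cfap43. Their correlations with Myc were 0.998 to 0.999, over libraries that fall into starved and stimulated groups. Ier3 and Ccn1 are immediate early genes, Trib1 encodes a pseudokinase and Taf5l a subunit of a histone acetyltransferase complex. For Ccn1 the log2FC was 7.90 with serum in control cells and 5.89 in Lap2-depleted cells, and 1.54 with Lap2 siRNA in 0.3% FBS. For Trib1 these values were 4.87, 3.62 and 1.11, and for Ier3 they were 4.41, 3.56 and 0.95. For Taf5l they were 1.09, 0.84 and 0.25, and for Cfap43 they were 3.63, 2.59 and 0.8. These genes were chosen by their correlation with Myc over the same libraries, so their shared order follows from the choice. With Lap2 siRNA in stimulated cells the log2FC was -0.47 for Ccn1, -0.24 for Cfap43, -0.15 for Trib1, 0 for Taf5l and 0.1 for Ier3.

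Mycn (ENSMUSG00000037169, chr12:12936096-12941914, minus strand), the neuronal paralogue that pairs with MAX in the same way, was the scarcest member, with 17 to 53 reads per library. It had 34.3, 45.9 and 48.5 normalized counts in starved control cells and 31.1, 47.5 and 43.5 in stimulated ones. In Lap2-depleted cells it had 33.1, 20.8 and 31.9 in 0.3% FBS, and 19.6, 20.1 and 22.2 in 15% FBS. The groups did not overlap between the siRNAs in either serum condition, though the control libraries of 34.3 and 31.1 were close to the starved Lap2-depleted ones. The difference was called in 15% FBS (log2FC -0.96, SE 0.29, edgeR adjusted p = 0.014), but without control replicate 2 it was -0.83 with an edgeR adjusted p of 0.08. In 0.3% FBS the log2FC was -0.58 (95% interval -1.14 to -0.02, edgeR adjusted p = 0.10). No response of Mycn to serum was detectable at these counts, with log2FC -0.08 (-0.62 to 0.45) in control and -0.47 (-1.09 to 0.15) in Lap2-depleted cells. The window before its start was the only 1 among the 8 genes with an E2F-type word (TTTCCCGC, TTTCGCGC, TTTGCCGC or TTTGGCGC, either strand), with 3 partly overlapping matches, where 1.86% of all windows held such a word.

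Max (ENSMUSG00000059436, chr12:76937269-76962248, minus strand), the partner that MYC, MYCN and the repressors need to bind DNA, changed little. It had 840, 898 and 756 normalized counts in starved control cells, 732, 774 and 585 in stimulated control cells, 765, 738 and 779 in starved Lap2-depleted cells and 662, 653 and 685 in stimulated Lap2-depleted cells. The control groups overlapped, and stimulated control replicate 3 was the lowest of the 12 libraries. Serum lowered Max by a log2FC of -0.25 in control cells (SE 0.09, edgeR adjusted p = 0.028), a call that was lost without starved control replicate 1 (-0.24, edgeR adjusted p = 0.082) or 2 (-0.18, edgeR adjusted p = 0.20), or without stimulated control replicate 3 (-0.14, edgeR adjusted p = 0.25). In Lap2-depleted cells the log2FC with serum was -0.19 (95% interval -0.37 to -0.01, edgeR adjusted p = 0.11), and it was called lower with scaling to total counts (-0.42, adjusted p = 0.00027) and to upper quartiles (-0.30, adjusted p = 0.0073). Lap2 siRNA gave -0.13 (-0.31 to 0.05) in 0.3% FBS and -0.07 (-0.25 to 0.12) in 15% FBS, neither of them called.

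Among the partners that act as repressors, Mxd4 and Mxd3 differed between the siRNAs in opposite directions. Mxd4 (ENSMUSG00000037235, chr5:34173883-34187720, minus strand), which encodes MAD4, a repressor found in quiescent and differentiated cells, was the most abundant of them. It had 5107, 5117 and 5084 normalized counts in starved control cells and 4067, 3968 and 3787 in stimulated control cells. Lap2-depleted cells had 2888, 2989 and 2709 in 0.3% FBS and 2844, 2677 and 2412 in 15% FBS. Every Lap2-depleted library was therefore below every control library, with or without serum. Lap2 siRNA lowered Mxd4 by a log2FC of -0.83 in 0.3% FBS (SE 0.06, edgeR adjusted p = 2.3e-12) and of -0.58 in 15% FBS (SE 0.07, edgeR adjusted p = 2.3e-08). Serum lowered it in control cells (log2FC -0.37, SE 0.06, edgeR adjusted p = 1.8e-05), and in Lap2-depleted cells the log2FC was -0.11 (95% interval -0.25 to 0.02, edgeR adjusted p = 0.20). Scaling to total counts (-0.35, adjusted p = 6e-05) and to upper quartiles (-0.23, adjusted p = 0.0068) gave a called fall there too. These serum responses differed by 0.26 (edgeR adjusted p = 0.058), which passed the threshold without starved Lap2-depleted replicate 1 (0.24, edgeR adjusted p = 0.039) or without stimulated Lap2-depleted replicate 3 (0.31, edgeR adjusted p = 0.018).

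Mxd3 (ENSMUSG00000021485, chr13:55325168-55329758, minus strand) encodes MAD3, the member of the MXD family known from S phase. Its normalized counts were 171, 125 and 132 in starved control cells, 127, 103 and 78.1 in stimulated control cells, 399, 365 and 325 in starved Lap2-depleted cells and 176, 170 and 205 in stimulated Lap2-depleted cells. The starved Lap2-depleted libraries were the 3 highest of the 12, and the stimulated ones were still above all stimulated control libraries. Lap2 siRNA raised Mxd3 2.56-fold in 0.3% FBS (log2FC 1.35, SE 0.14, edgeR adjusted p = 1.6e-09), the largest change with Lap2 siRNA among the 9 members, and 1.77-fold in 15% FBS (log2FC 0.83, SE 0.16, edgeR adjusted p = 0.00013). Serum lowered it in Lap2-depleted cells (log2FC -0.98, SE 0.14, edgeR adjusted p = 6.4e-07). In control cells serum lowered it by a log2FC of -0.46 (SE 0.16, edgeR adjusted p = 0.028), with overlapping groups and with no call without starved control replicate 1 (-0.30, edgeR adjusted p = 0.23) or without stimulated control replicate 2 (-0.45, edgeR adjusted p = 0.07) or 3 (-0.30, edgeR adjusted p = 0.19). The serum responses differed by -0.53 (edgeR adjusted p = 0.10), and by -0.70 (edgeR adjusted p = 0.029) without starved control replicate 1 and -0.68 (edgeR adjusted p = 0.031) without stimulated control replicate 3. Mxd3 shares 105 exonic bases with Prelid1 on the other strand, and whether the authors' counting used strand is not given in the sources used here. Prelid1 had 3537 to 5193 reads per library and log2FC values of -0.07 to -0.01 in these 4 comparisons. An influence of this overlap on the counts of Mxd3 was not tested.

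Mxi1 (ENSMUSG00000025025, chr19:53310506-53375810, plus strand), also called MXD2, responded to serum differently in the 2 kinds of cells. It had 736, 847 and 836 normalized counts in starved control cells and 656, 686 and 563 in stimulated control cells, which was lower without overlap. In Lap2-depleted cells it had 943, 803 and 865 in 0.3% FBS and 1001, 982 and 927 in 15% FBS, so that stimulated Lap2-depleted cells were above stimulated control cells without overlap. Serum lowered it in control cells (log2FC -0.34, SE 0.09, edgeR adjusted p = 0.0019), and in Lap2-depleted cells the log2FC was 0.15 (95% interval -0.02 to 0.32, edgeR adjusted p = 0.17), which turned to -0.08 with scaling to total counts. The responses differed by 0.50 (SE 0.12, edgeR adjusted p = 0.0036), and this difference lay between 0.42 and 0.56 under the alternatives run. Lap2 siRNA raised Mxi1 1.52-fold in 15% FBS (log2FC 0.61, SE 0.09, edgeR adjusted p = 1.3e-06) and gave 0.11 (-0.06 to 0.28, edgeR adjusted p = 0.33) in 0.3% FBS, or 0.22 with total counts (adjusted p = 0.036).

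Mxd1 (ENSMUSG00000001156, chr6:86647042-86669161, minus strand), the founding MAD repressor, was highest in starved control cells. Its normalized counts were 444, 466 and 445 there, 361, 391 and 288 in stimulated control cells, 361, 370 and 398 in starved Lap2-depleted cells and 357, 379 and 373 in stimulated Lap2-depleted cells. The 3 starved control libraries stood above the other 9, which overlapped with each other. Serum lowered Mxd1 in control cells (log2FC -0.38, SE 0.10, edgeR adjusted p = 0.0034), and in Lap2-depleted cells the log2FC was -0.02 (-0.23 to 0.18), or -0.26 (adjusted p = 0.047) with scaling to total counts. The difference of the responses was 0.35 (95% interval 0.06 to 0.65, edgeR adjusted p = 0.11) and was not called. Lap2 siRNA lowered it in 0.3% FBS (log2FC -0.27, SE 0.10, edgeR adjusted p = 0.036), but not with DESeq2 (-0.25, adjusted p = 0.053), with scaling to total counts (-0.16, adjusted p = 0.24) or without any of the 3 starved control libraries (-0.27, -0.22 and -0.26) or starved Lap2-depleted replicates 1 (-0.22) or 2 (-0.24).

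Mnt (ENSMUSG00000000282, chr11:74830920-74845725, plus strand), the repressor that is expressed in growing and resting cells alike, varied little. It had 1168, 1188 and 1126 normalized counts in starved control cells, 1388, 1357 and 1383 in stimulated control cells, 1064, 1344 and 1351 in starved Lap2-depleted cells and 1227, 1181 and 1270 in stimulated Lap2-depleted cells. The low value of 1064 belongs to replicate 1, the library that stood apart. Serum raised Mnt in control cells by a log2FC of 0.24 (SE 0.08, edgeR adjusted p = 0.014), but scaling to total counts gave 0.04 (adjusted p = 0.75) and upper-quartile scaling 0.15 (adjusted p = 0.13). In Lap2-depleted cells the log2FC with serum was -0.03 (-0.19 to 0.13), and total counts made it a called fall (-0.26, adjusted p = 0.0068). With Lap2 siRNA it was 0.11 (-0.05 to 0.27) in 0.3% FBS, or 0.22 with total counts (adjusted p = 0.024), and -0.17 (-0.32 to -0.01, edgeR adjusted p = 0.13) in 15% FBS. Without starved Lap2-depleted replicate 1 the value in 0.3% FBS became 0.23 (edgeR adjusted p = 0.0042). The value in 15% FBS, a comparison that does not hold this library, became -0.18 (edgeR adjusted p = 0.02). A fit of the 15% FBS groups alone gave the same -0.18 (edgeR adjusted p = 0.02). Without that starved library the difference of the serum responses went from -0.28 (edgeR adjusted p = 0.098) to -0.41 (edgeR adjusted p = 0.00059).

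Mlx (ENSMUSG00000017801, chr11:101087277-101092207, plus strand), the MAX-like partner of MXD proteins, MNT and the glucose-sensing MONDO proteins, was higher with serum and higher with Lap2 siRNA. It had 421, 373 and 388 normalized counts in starved control cells, 642, 587 and 565 in stimulated control cells, 650, 558 and 557 in starved Lap2-depleted cells and 794, 726 and 782 in stimulated Lap2-depleted cells. Starved Lap2-depleted cells thus had about as much Mlx as stimulated control cells, and none of the 4 comparisons had overlapping groups. Serum raised it 1.52-fold in control cells (log2FC 0.60, SE 0.09, edgeR adjusted p = 1.6e-06) and 1.30-fold in Lap2-depleted cells (log2FC 0.38, SE 0.09, edgeR adjusted p = 0.00063). The latter was 0.15 (adjusted p = 0.17) with scaling to total counts. Lap2 siRNA raised Mlx by a log2FC of 0.58 in 0.3% FBS (SE 0.09, edgeR adjusted p = 2.8e-06) and of 0.36 in 15% FBS (SE 0.09, edgeR adjusted p = 0.0020). The serum responses differed by -0.22 (-0.48 to 0.03), which was not called. Mlx shares 385 exonic bases with Psmc3ip on the other strand, which had 133 to 285 reads and log2FC values of -0.26 to -0.05, none of them called.

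**Figure D2:**
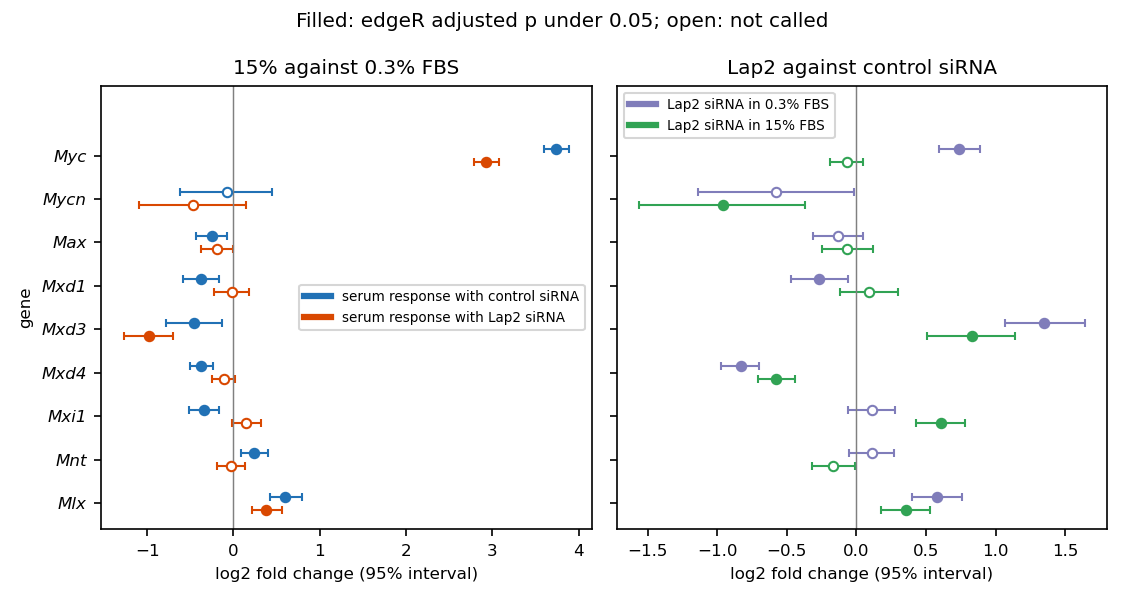
Log2 fold changes of the 9 genes with 95% intervals, for serum with each siRNA (left) and Lap2 siRNA in each serum condition (right); filled points passed the edgeR test and open points did not. Myc stands at 3.74 and 2.93 under serum, and under Lap2 siRNA Mxd3 (1.35 and 0.83) and Mxd4 (-0.83 and -0.58) lie on opposite sides of 0.

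Compared per exonic length, with all annotated exons of a gene merged, the order of the members changed with serum and with the siRNA. Levels of different genes relative to each other depend on this choice of length. In starved control cells Mxd4 was highest at 28.5 ± 0.0961 RPKM (SD, n = 3), followed by Mnt at 11.9 and Max at 11.0, whose libraries overlapped, by Mlx at 9.34, which overlapped with Max, and by Myc at 6.31. In starved Lap2-depleted cells Mxd4 (16.0), Mlx (14.0), Mnt (12.8), Myc (10.6) and Max (10.0) formed a run in which each neighbour overlapped with the next. Mxd3, the eighth of 9 in starved control cells at 2.85 RPKM, was the sixth at 7.27 there. In stimulated cells Myc was highest with either siRNA, at 84.6 ± 3.97 RPKM in control and 80.6 ± 0.879 RPKM in Lap2-depleted cells. Next came Mxd4 (22.0) in stimulated control cells and Mlx (18.2) in stimulated Lap2-depleted cells. Mycn was lowest in each group, at 0.297 to 0.618 RPKM.

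The balance between Myc and its partners was described by ratios of these levels of mRNA. Myc per Max was 0.585, 0.529 and 0.622 in starved control cells and 1.02, 1.15 and 0.995 in starved Lap2-depleted cells. With serum it was 8.86, 7.86 and 11.4 in control and 9.35, 9.27 and 8.91 in Lap2-depleted cells. The starved groups were apart and the stimulated groups overlapped. The 5 repressors Mxd1, Mxd3, Mxd4, Mxi1 and Mnt summed to 51.9 ± 0.463 RPKM (SD, n = 3) in starved control cells, 44.9 ± 1.94 in stimulated control cells, 44.7 ± 1.02 in starved Lap2-depleted cells and 40.2 ± 0.968 in stimulated Lap2-depleted cells. Mxd4 made up 54.7% to 55.3% of that sum in starved control cells, 48.7% to 49.5% in stimulated control cells and 34.1% to 38.5% in the 6 Lap2-depleted libraries. Myc per repressor sum was 0.122 ± 0.00253 in starved control cells, 0.236 ± 0.00648 in starved Lap2-depleted cells, 1.89 ± 0.154 in stimulated control cells and 2.00 ± 0.0307 in stimulated Lap2-depleted cells. With 3 libraries in each group, a two-sided exact permutation test of such a ratio between a pair of groups cannot reach 0.05, so no test is given.

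**Figure D3:**
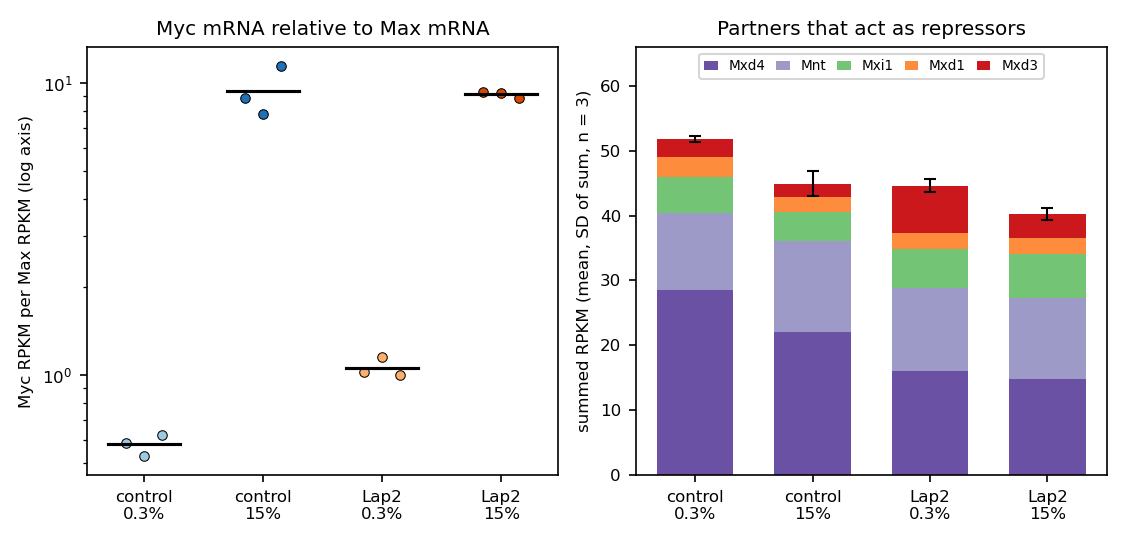
Left, Myc RPKM per Max RPKM in each library on a log axis, with lines at the group means; right, mean RPKM of the 5 repressors stacked, with the SD of their sum (n = 3). The starved ratios are 0.529 to 0.622 in control and 0.995 to 1.15 in Lap2-depleted cells, and the Mxd4 share of the stack falls from 55.0% in starved control cells to 35.8% in starved Lap2-depleted cells.

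Of 4 further genes of the extended network, 3 were tested. Mlxip, which encodes MONDOA, a glucose-sensing partner of MLX, rose with serum (log2FC 0.36 in control and 0.50 in Lap2-depleted cells, edgeR adjusted p = 0.00027 and 2.7e-06) and fell with Lap2 siRNA (log2FC -0.40 in 0.3% FBS and -0.26 in 15% FBS, edgeR adjusted p = 6e-05 and 0.0092), while its partner Mlx rose in all 4. Mycl, a further MYC paralogue, was near the limit of counting at 0.0238 to 0.195 RPKM and was called lower with Lap2 siRNA (log2FC -2.78 and -2.93, edgeR adjusted p = 0.0042 and 0.0041). Mga, a large protein that pairs with MAX, was not called in the 5 comparisons, with log2FC values of -0.12 to 0.08. Without starved Lap2-depleted replicate 1 it was called higher with Lap2 siRNA in 0.3% FBS (0.17, edgeR adjusted p = 0.027), lower with serum in Lap2-depleted cells (-0.20, edgeR adjusted p = 0.01) and lower in the interaction (-0.29, edgeR adjusted p = 0.0094). Mlxipl had too few reads to be tested.

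Among 20 cofactors and regulators of MYC protein, serum raised 5 and lowered 0 in control cells (15.6% and 13.9% of all genes) and raised 4 and lowered 5 in Lap2-depleted cells (18.3% and 14.9%). The latter were 3 and 9 without starved Lap2-depleted replicate 1, and 2 and 5 without stimulated Lap2-depleted replicate 1. Their median log2FC was 0.03 and -0.03, beside -0.01 and 0 for all genes, and scaling to total counts turned these counts to 0 higher with 10 lower and 0 higher with 13 lower. With Lap2 siRNA 6 were higher and 2 lower in 0.3% FBS (17.8% and 18.6% of all genes, median 0.11, all genes 0.01). In 15% FBS 3 were higher and 2 lower (11.4% and 12.1% of all genes, median 0.03, all genes 0.02). The count in 15% FBS moved with the libraries fitted. With each of the 12 left out in turn it was 1 to 3 higher and 0 to 5 lower. It was 1 and 0 without stimulated control replicate 1, and 2 and 0 without stimulated replicate 2 of either siRNA. Without starved Lap2-depleted replicate 1, which is not in this comparison and enters only through the shared fit, it was 3 and 5. A fit of the 15% FBS groups alone also gave 3 and 5. Without starved Lap2-depleted replicate 1 the count in 0.3% FBS was 10 higher and 2 lower, and with scaling to total counts 15 higher and 1 lower. The largest change was that of Skp2, which encodes a ubiquitin ligase subunit that targets MYC and the cell cycle inhibitor p27. For Skp2 the log2FC was 1.01 with Lap2 siRNA in 0.3% FBS (SE 0.08, edgeR adjusted p = 4.8e-12), 0.32 with serum in control cells and -0.47 with serum in Lap2-depleted cells. Hdac2, a histone deacetylase used by the MXD proteins, was lower in starved Lap2-depleted cells (log2FC -0.45, edgeR adjusted p = 2.6e-07), and Wdr5, a chromatin cofactor of MYC, was higher (0.39, edgeR adjusted p = 4.4e-05).

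Of 24 genes known to be activated by MYC, most were higher in Lap2-depleted cells. This list was chosen with earlier results of these data known, so its counts describe the data and are no independent test. In 0.3% FBS 19 were higher and 1 lower (17.8% and 18.6% of all genes, median log2FC 0.55, all genes 0.01). In 15% FBS 15 were higher and 1 lower (11.4% and 12.1% of all genes, median 0.29, all genes 0.02). In 0.3% FBS the higher genes included Nme1, a nucleoside diphosphate kinase (log2FC 1.07, edgeR adjusted p = 8.7e-09), Nop56, a nucleolar protein that modifies ribosomal RNA (1.06, edgeR adjusted p = 3.9e-14), Gnl3 or nucleostemin (0.91, edgeR adjusted p = 1.1e-10) and Rcc1, the exchange factor of RAN (0.86, edgeR adjusted p = 8.6e-08). The gene that was lower was Odc1, which encodes ornithine decarboxylase, the first enzyme of polyamine synthesis (log2FC -0.46, edgeR adjusted p = 1.6e-06). In 15% FBS Nop56 had a log2FC of 0.64 and Polr1b, a subunit of RNA polymerase I, one of 0.63, and the gene that was lower was Ccnd2 (-0.58), a D-type cyclin.

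After serum the same 24 genes were split. In control cells 13 were higher and 2 lower (15.6% and 13.9% of all genes, median 0.22, all genes -0.01). In Lap2-depleted cells 6 were higher and 8 lower (18.3% and 14.9% of all genes, median -0.10, all genes 0). The division depended on the scaling: with total counts it was 6 higher and 5 lower in control and 2 higher and 17 lower in Lap2-depleted cells, and with upper quartiles 8 and 4, and 5 and 13. In Lap2-depleted cells it also depended on single libraries, with 4 lower without stimulated Lap2-depleted replicate 1 or 2 and 11 lower without replicate 3. Odc1 rose most in both, by a log2FC of 1.30 (edgeR adjusted p = 3.5e-17) in control and 1.70 (edgeR adjusted p = 4e-20) in Lap2-depleted cells. The next largest changes in either direction were those of Ccnd2 (0.79), Gnl3 (0.76) and Nop58 (0.62) in control cells, and of Polr1b (-0.51), Cad (-0.46) and Eif4e (0.44) in Lap2-depleted cells. By the interaction test 11 of the 24 responses were more negative in Lap2-depleted cells and 1, that of Odc1, more positive (median difference -0.28, all genes 0.02), where 13.6% of all genes were called in either direction. Without starved Lap2-depleted replicate 1 these were 13 and 2, where 1973 and 1556 of 18434 genes were called.

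S-phase genes were counted because Mxd3 is known from that phase. Like the others, this list was chosen with earlier results of these data known, so its counts are no independent test. All 12 were higher in starved Lap2-depleted cells, as were 17.8% of all genes (median log2FC 1.03, all genes 0.01). The 12 were led by Ccne2, a cyclin of the G1/S transition (1.60, edgeR adjusted p = 4.4e-11), Mcm3, a subunit of the replicative helicase (1.20, edgeR adjusted p = 1.2e-14), and Cdc6, which loads that helicase (1.14, edgeR adjusted p = 5.7e-08). In 15% FBS 6 were higher and 0 lower (11.4% and 12.1% of all genes, median 0.22, all genes 0.02). However, 3 were higher without stimulated Lap2-depleted replicate 3 (median 0.13) and 4 without stimulated control replicate 1 or 3. Serum lowered 11 of 12 in Lap2-depleted cells and raised 0 (14.9% and 18.3% of all genes, median -0.46, all genes 0), as it lowered Mxd3. A fit of these groups alone gave 10 lower. Serum lowered 8 without stimulated Lap2-depleted replicate 1 or 2, and 12 without replicate 3. In control cells it raised 9 and lowered 0 (15.6% and 13.9% of all genes, median 0.27, all genes -0.01), whereas Mxd3 fell there. Scaling to total counts or to upper quartiles gave 5 higher and 2 lower in control cells. All 12 serum responses were more negative in Lap2-depleted cells by the interaction test, as for 6.51% of all genes (median difference -0.77, all genes 0.02). The comparisons with Lap2 siRNA and those with serum share groups of libraries, so their values stand side by side here and none is a second measurement of another. How much of the change of Mxd3, of Myc or of the lists goes with the share of cells in S phase was not tested.

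**Figure D4:**
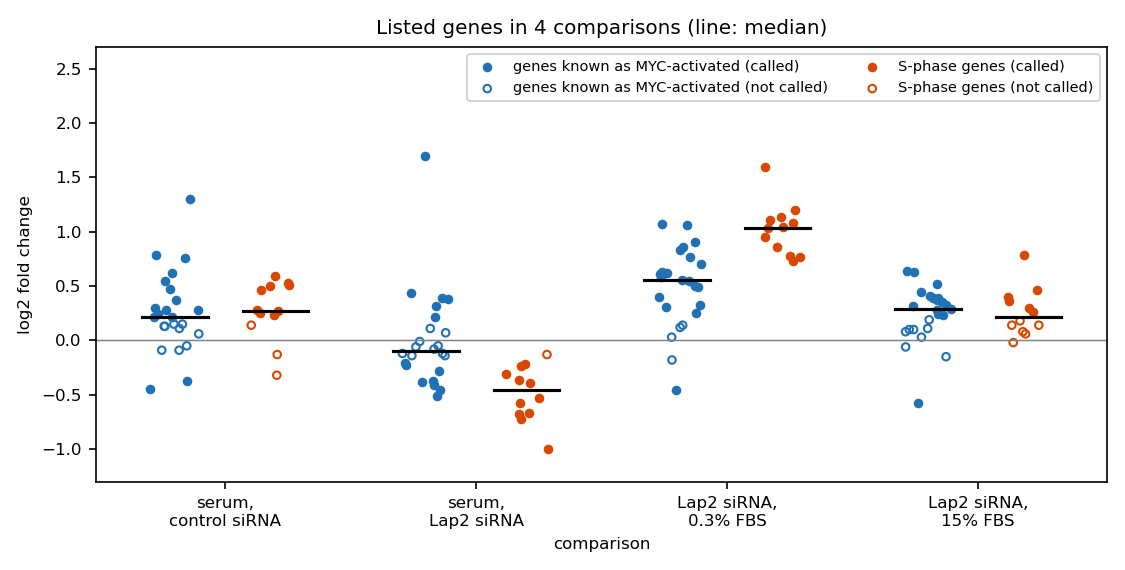
Log2 fold change of each of 24 genes known to be activated by MYC and 12 S-phase genes in 4 comparisons (filled, called by edgeR; open, not called; black lines, medians). In 0.3% FBS the medians with Lap2 siRNA are 0.55 and 1.03, and with serum in Lap2-depleted cells they are -0.10 and -0.46.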

How the data were processed

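Libraries were directional and made from total RNA after removal of ribosomal RNA. The authors used TopHat2 within Chipster, at default settings, for alignment to mm10, and HTSeq for gene counts. These deposited counts are not normalized. Tool versions, the annotation release and the strand setting are not given in the sources used here. The 9 members and the gene lists were chosen with earlier results of these data known.

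Counts were scaled by TMM in edgeR 4.0.16 (R 4.3.3). The 18668 genes that had more than 1 read in 3 or more libraries were fitted with 1 mean for each of the 4 groups by glmQLFit, and 5 contrasts were tested by glmQLFTest with Benjamini-Hochberg adjustment over all genes (threshold 0.05). Normalized counts are counts brought to a common TMM-scaled library size, and RPKM divides these by the exonic length in GENCODE M21. Nothing in the labels says that replicates are separate cultures, so p-values measure the spread between these libraries, which may be technical. Between 18026298 and 26265253 counts per library gave standard errors of 0.06 to 0.16 (log2) for the serum and siRNA effects of all members but Mycn. Genes are named by a rule: the 9 members, Tmpo, the genes of the lists (up to 4 called genes with the largest change in a comparison), and the 5 genes most correlated with each member that passed a log2FC of 1 under serum. Promoter windows were searched in Python 3.11.15. Alternatives were DESeq2 1.42.0, other scalings and filters, fits of the groups compared only, the replicate number as a block, and each library left out. For the authors' own comparison the paper names DESeq and the sample labels name DESeq2. That comparison was not used here.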

Additional observations from a re-analysis of the deposited data

Results flagged for a closer look

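The serum responses of 2 members differed between the siRNAs by the interaction test over all 12 libraries. For Myc the log2 response was -0.81 in Lap2-depleted minus control cells (3.74 in control and 2.93 in Lap2-depleted cells, edgeR adjusted p = 1.9e-07), with starved levels 1.67-fold apart. For Mxi1 the difference was 0.50 (-0.34 in control and 0.15 in Lap2-depleted cells, edgeR adjusted p = 0.0036). Depletion of Tmpo was itself unequal, with a log2FC of -1.38 in 0.3% FBS and -2.17 in 15% FBS (interaction -0.79, edgeR adjusted p = 3e-06). Its part in the differences of Myc and Mxi1 was not tested.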

How the results depend on the processing

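The 45 fold changes (9 members in 5 comparisons) were recomputed under other scalings, filters, tools and fits (351 values) and without each library (540 values). Of the former, 334 kept their direction and their side of the threshold, 5 lost and 9 gained a call, and 3 turned sign without being called in either fit. Of the latter these were 513, 12, 7 and 8. The values that turned were those of Myc and Max with Lap2 siRNA in 15% FBS (0.02 each) and of Mxi1 with serum in Lap2-depleted cells (-0.08), all with scaling to total counts, which by its construction lacks the correction for composition and moved the median of all genes by 0.09 and -0.23. With each library left out, the values that turned, none of them called, ranged from -0.21 to 0.08 for Mycn with serum in control cells, from -0.17 to 0.01 for Max and from -0.02 to 0.18 for Mxd1 with Lap2 siRNA in 15% FBS, from -0.04 to 0.14 for Max in the interaction and from -0.15 to 0.01 for Mnt with serum in Lap2-depleted cells. Members called under serum in Lap2-depleted cells were 3 in the reported fit, 6 with total counts and 5 with upper quartiles. Over all genes these fits called 3420 higher and 2777 lower, 1658 and 5951, and 2383 and 3942. Without each library in turn the members called were 6 to 8 for serum in control cells and 3 for serum in Lap2-depleted cells. They were 4 to 5 and 4 to 6 for Lap2 siRNA in 0.3% and 15% FBS, and 2 to 4 for the interaction. The 4 came without starved Lap2-depleted replicate 1, where 1556 higher and 1973 lower of 18434 genes were called. With the replicate block the members called were 8, 3, 5, 5 and 2, as without it. Same-numbered libraries deviated together with correlations of only -0.12 to 0.10, so the numbers were not taken to pair the samples. Depth limits the statements on Mycn (17 to 53 reads) and Mycl, and 3 libraries per group limit the exact tests.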
